A study of Mus musculus with 6 samples.

Results

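DNA replication genes were followed in mouse bone marrow progenitors in which Rad21, a core subunit of the cohesin ring, had been targeted by shRNA. The set was chosen by name: 46 genes of the replication machinery, of which 43 had a probe set annotated to exactly 1 gene, among 12393 genes measured. Gins2, Rnaseh2a and Chaf1a had none and are not analysed here. Where a gene had several probe sets, the brightest on average over the 6 arrays stands for it. There were 3 groups of 2 Affymetrix arrays: Rad21 shRNA1, Rad21 shRNA2 and empty vector, the last being the control virus. All groups shared the same host and handling. Marrow from C57/BL6 mice of 6 to 8 weeks, depleted of lineage-positive cells, was exposed to lentivirus for 24 hours and selected with puromycin at 1 µg/mL. Sorted live cells were then plated at 10000 per mL in methylcellulose with cytokines, and total RNA was taken after 7 days. The labels do not say whether 2 arrays of a group came from separate cultures or animals, so every p-value here reflects array-to-array spread that may be technical only.

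Replication starts when the origin recognition complex, Cdc6 and Cdt1 load the MCM helicase onto DNA, a step that geminin blocks. Kinases and firing factors then switch the helicase on, primase and the DNA polymerases copy both strands, and a clamp, a clamp loader and single-strand binding proteins hold the fork together. Transcription of many of these genes peaks as cells enter S phase and is driven by E2F factors, and their levels are widely used as marks of proliferating cells in marrow and other tissues.

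Because E2F factors act at many of these genes, the promoters were searched for the 8-base E2F motifs TTTCCCGC, TTTGGCGC, TTTCGCGC and TTTGCCGC on both strands, with overlaps counted. The window held 250 bases before and 50 bases after the start in the RefSeq promoter table (GRCm38.p6). Of the 43 genes, 37 had 45 promoters in that table, and 13 of these promoters (28.9%) held a motif, against 744 of 32851 promoters in the table as a whole (2.26%). Among mitosis genes it was 1 of 28 promoters (3.57%). The 13 genes were Mcm3, Mcm5, Mcm6, Mcm7, Orc1, Cdc6, Cdt1, Rfc3, Lig1, Pold1, Pole2, Pola1 and Uhrf1. Shown are Mcm6 and Pole2, which lead their role groups below by smallest p, and Mcm5, added after the search because its upstream motifs overlap. Mcm6 (chr1:128359706-128359955, minus strand) and Mcm5 (chr8:75109259-75109508, plus strand) are shown over the 250 bases before the start, and Pole2 (chr12:69228162-69228191, minus strand) over 30 bases around its motif at the start. Capitals mark the motifs, read 5′ to 3′ along the gene.
Mcm6: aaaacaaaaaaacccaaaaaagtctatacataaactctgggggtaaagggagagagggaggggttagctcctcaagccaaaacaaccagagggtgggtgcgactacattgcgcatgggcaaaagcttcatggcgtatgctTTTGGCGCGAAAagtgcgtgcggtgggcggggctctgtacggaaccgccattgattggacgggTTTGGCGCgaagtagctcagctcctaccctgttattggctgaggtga
Mcm5: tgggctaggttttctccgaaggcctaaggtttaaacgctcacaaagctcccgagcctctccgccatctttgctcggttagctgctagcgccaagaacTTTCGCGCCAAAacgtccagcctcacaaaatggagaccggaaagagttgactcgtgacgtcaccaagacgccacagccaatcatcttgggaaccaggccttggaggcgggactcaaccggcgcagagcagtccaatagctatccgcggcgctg
Pole2: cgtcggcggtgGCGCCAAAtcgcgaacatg
The Mcm6 window holds 3 matches, a pair of which overlap, and the Mcm5 window holds 2 that overlap. A match is a string of letters and not a measured binding site.

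Before the results, the arrays themselves differed in ways that touch them. Rad21 stood at an intensity of 790 and 562 on the shRNA1 arrays and 724 and 551 on the shRNA2 arrays, against 2260 and 1439 on the empty-vector arrays, a log2 difference of -1.47 ± 0.26 for both shRNAs together (SE of the limma fit, adjusted p = 0.0558). It passed with the replicate block (0.0166), and the alternatives spanned 0.00721 to 0.203. For the Gapdh control, the 3′ minus 5′ gap in log2 intensity was 2.42 on empty-vector replicate 1, compared with -0.078 to 0.017 on the other 5 arrays. Of 20 erythroid genes measured, 19 were higher on empty-vector replicate 1 than on replicate 2, and their mean log2 intensity was 7.49 to 7.79 on the shRNA arrays, against 9.23 and 7.85 on the empty-vector arrays. Defining markers of haematopoietic cells, such as Ptprc and Spi1, averaged 11.28 to 11.36 on the shRNA arrays and 10.83 and 11.34 on the empty-vector arrays. Lists of B cell, T and NK cell and stromal markers stayed between 4.45 and 5.63 on every array. The table holds no value of 0. In such bulk samples, fewer cells of a type and less RNA per cell cannot be told apart.

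Taken as a set, the replication genes stood higher on the shRNA2 arrays than on the shRNA1 arrays, and the 2 controls lay far apart. The mean log2 intensity over the 43 genes was 8.92 and 8.53 on the shRNA1 arrays, 9.27 and 9.16 on the shRNA2 arrays, and 8.96 and 8.13 on the empty-vector arrays. Empty-vector replicate 1 therefore lay among the shRNA arrays and replicate 2 below all of them. Replicate 1 was above replicate 2 for 37 of the 43 genes (86.0%), compared with 58.0% of all 12393 genes. The median difference was 0.91, compared with 0.085 over all genes. Replicate 1 was the highest array of all for 17 of the 43, compared with 4415 of all 12393 genes. Replicate 2 was the lowest array for 35 of the 43, compared with 2668 of all genes. The 6 genes in which replicate 1 lay below replicate 2 were Orc2, Pola1, Pola2, Pole2, Dut and Chaf1b. The Gapdh gap and the erythroid levels moved with this split, and their part in it was not tested.

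**Figure D1:**
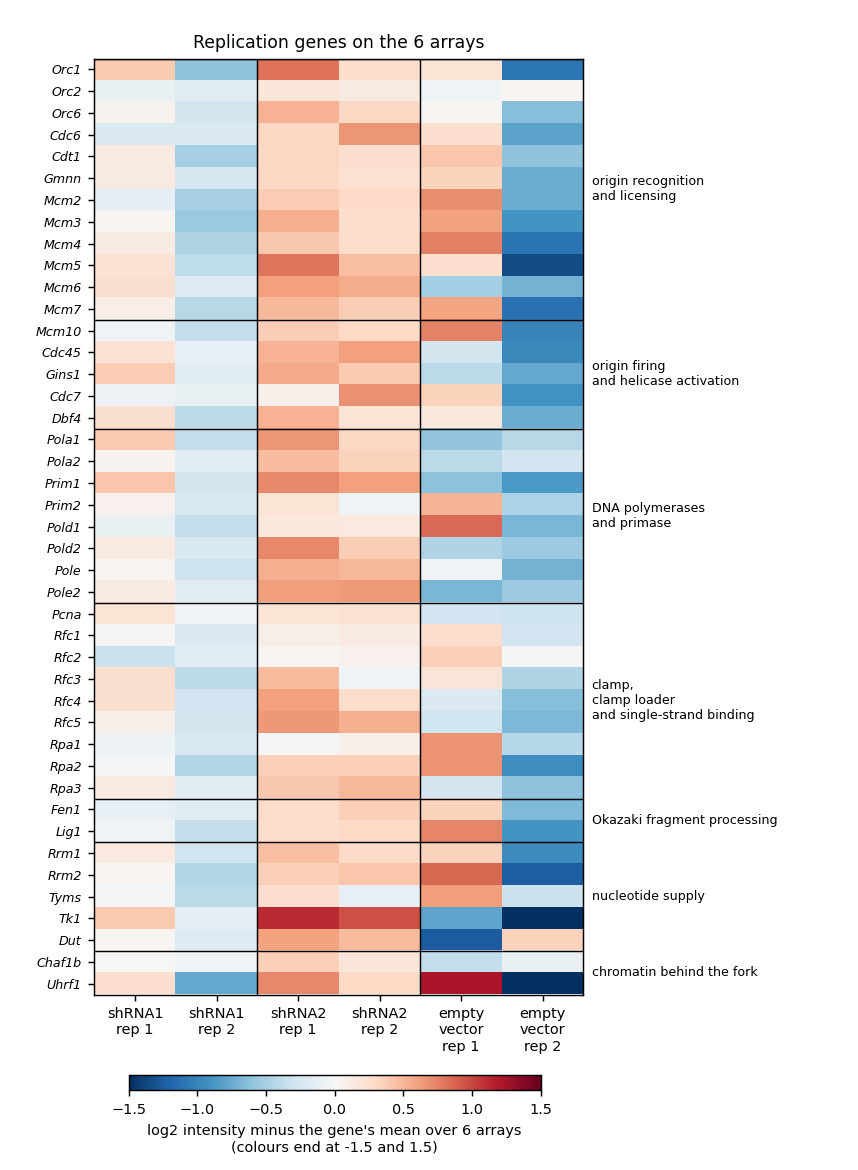
Log2 intensity of the 43 replication genes on each array, as the difference from each gene's own mean over the 6 arrays (colour, ending at -1.5 and 1.5), with genes in rows by role and arrays in columns. Most rows are red on both shRNA2 arrays and blue on empty-vector replicate 2, and empty-vector replicate 1 is red in most MCM genes and blue in Dut, Tk1 and Pole2.

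With both shRNAs pooled against empty vector, 2 of the 43 genes rose at an adjusted p under 0.05 (limma, adjusted over all genes), Tk1 and Pole2, and none fell. Over all genes 0.734% rose. With the replicate number as a block 1 gene rose, Tk1, against 0.726% of all genes, and Pole2 did not pass. The median difference was 0.41 on the log2 scale, compared with -0.023 over all genes. Positive differences were found in 38 of 43, against 46.4% of all genes. An unadjusted p under 0.05 was reached by 14 genes (32.6%), against 16.7% of all genes. In 13 genes all 4 shRNA arrays lay above both empty-vector arrays, as they did in 11.5% of all genes. These were Mcm6, Cdc45, Gins1, Pola1, Pola2, Prim1, Pold2, Pole2, Pcna, Rfc5, Rpa3, Tk1 and Chaf1b. Of the 4 subunits of the polymerase alpha and primase complex, which starts each new strand, Pola1, Pola2 and Prim1 are among them. Prim2 is not on its brightest probe set but is on its second, whereas Pola2 and Prim1 are not on their second.

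These values depended on which control was used. Against empty-vector replicate 1 alone the median difference was -0.12, with 20 genes above 0. Over all 12393 genes that median was -0.069, with 5259 above 0. Against replicate 2 alone the replication genes had a median of 0.85, with 40 genes above 0, compared with 0.018 and 6577 over all genes. Prim2, Pold1, Rpa1 and Tyms were among the 40 replication genes, although they were below 0 against the mean of both controls. Without replicate 1, 13 genes rose and none fell (1.97% of all genes rose). Without replicate 2, 6 rose and 6 fell (13.1% and 12.1% of all genes), the fallers being Mcm2, Mcm10, Pold1, Rpa1, Lig1 and Rrm2. Tk1 and Pole2 rose in both of these fits. Mcm10, Lig1 and Rrm2 rose in the first and fell in the second. The calls of Tk1 and Pole2 were lost without any single shRNA array. Other cell lineages moved with the comparison too: 14 neutrophil-lineage genes averaged a log2 intensity of 11.40 to 12.11 on the shRNA arrays, against 9.64 and 9.07 on the empty-vector arrays, and 6 of them rose. Mast cell and basophil genes (12 measured, 2 fell) averaged 9.42 to 10.09, against 10.65 and 11.17, and megakaryocyte genes (9 measured, 1 fell) 8.48 to 9.43, against 10.05 and 9.89. Over all genes 0.734% rose and 1.4% fell. The part of these lineage lists in the replication genes' differences was not tested.

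**Figure D2:**
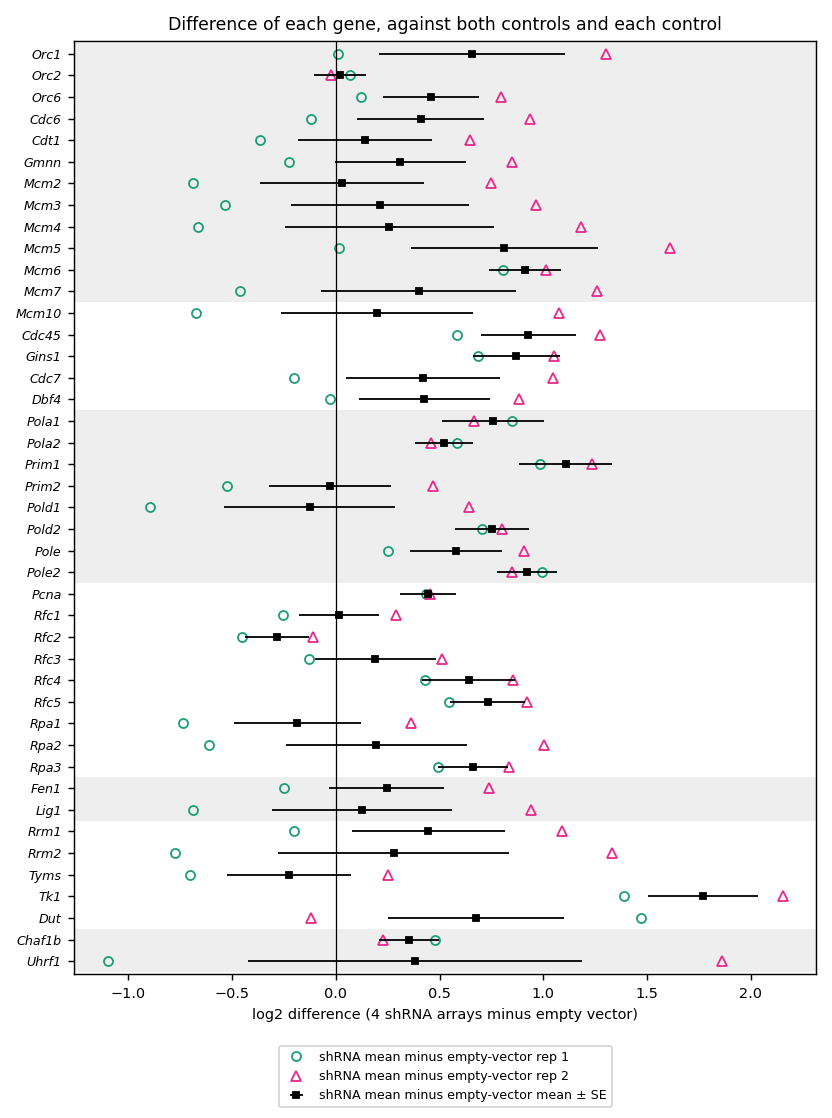
Log2 difference of each replication gene between the mean of the 4 shRNA arrays and the empty vector, with genes in rows shaded by role. Squares are the difference from the mean of both controls with the SE of the limma fit, circles the difference from empty-vector replicate 1 and triangles from replicate 2; Tk1 stands farthest right, at 1.77, and in Uhrf1 the circle and the triangle lie on opposite sides of 0.

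Taking the shRNAs singly, no replication gene was called for shRNA1 (0 of 43 by limma), while 0.0968% of all genes rose. For shRNA1, 6 of the 43 had an unadjusted p under 0.05, against 9.30% of all genes. The median difference for shRNA1 was 0.18. For shRNA2, 3 rose, Tk1, Pole2 and Mcm6, against 0.88% of all genes, and the median was 0.66 with 40 of 43 differences positive. With the replicate block 7 genes rose for shRNA2, adding Gins1, Prim1, Pold2 and Rfc5, against 1.15% of all genes. Without empty-vector replicate 1 it was 26, against 3.48% of all genes. Without replicate 2, 11 rose and 2 fell, against 12.5% and 11.2% of all genes, and without any single shRNA array none was called. For shRNA1, leaving out empty-vector replicate 2 gave 2 that rose and 8 that fell, against 11.1% and 9.34% of all genes, and a median of -0.34. Both comparisons share the empty-vector arrays, so their values are not independent of each other.

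Licensing genes, which build the origin complex and load the helicase, had 12 members measured, all with positive differences for both shRNAs together and none called, with a median of 0.35 and a range from 0.021 (Orc2) to 0.91 (Mcm6). Mcm6, a helicase subunit, had intensities of 1972 and 1445 on the shRNA1 arrays and 2557 and 2451 on the shRNA2 arrays, against 1175 and 1020 on the empty-vector arrays. The groups did not overlap, and both shRNA2 arrays were the highest. The difference was 0.91 ± 0.17 for both shRNAs (adjusted p = 0.0669) and 1.19 ± 0.20 for shRNA2, or 2.29-fold, which passed (limma adjusted p = 0.0427, range 0.0210 to 0.332). It did not pass with the mean of its 2 probe sets (a log2 difference of 1.00), with array weights or without any single shRNA array. Mcm5, another subunit, stood at 443 and 294 with shRNA1 and 665 and 524 with shRNA2, against 456 and 151 with the empty vector. Its controls were 1.59 log2 units apart, replicate 1 lying inside the range of the shRNA arrays, and the difference of 0.81 ± 0.45 did not pass (adjusted p = 0.443). Orc6, a subunit of the origin recognition complex, had 308 and 246 with shRNA1 and 428 and 369 with shRNA2, against 305 and 190 with the empty vector, a difference of 0.46 ± 0.23 (adjusted p = 0.390). Here too empty-vector replicate 1 lay among the shRNA1 arrays.

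The other MCM subunits repeated this split of the controls. Empty-vector replicate 1 exceeded replicate 2 by 1.44 log2 units in Mcm2, 1.5 in Mcm3, 1.85 in Mcm4 and 1.72 in Mcm7, but by 0.20 in Mcm6. Their differences for both shRNAs were 0.029 ± 0.39, 0.21 ± 0.43, 0.26 ± 0.50 and 0.40 ± 0.47 in that order of genes. None exceeded its standard error, and on the brightest probe sets the subunits of 1 complex ranged from 0.029 to 0.91. On the second Mcm6 probe set the control gap was 1.29 and the difference 0.47. On the fourth Mcm3 probe set the gap was 0.15 and the difference 0.78, while the other Mcm3 probe sets ran from -0.030 to 0.21. The loaders Cdc6 and Cdt1 differed by 0.41 and 0.14, geminin (Gmnn), which holds Cdt1 in check, by 0.31, and Orc1 and Orc2 by 0.66 and 0.021.

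Of 5 firing factors, which turn the loaded helicase into a moving one, none was called, and their differences ran from 0.20 to 0.93. Cdc45, part of the active helicase, had intensities of 252 and 199 with shRNA1 and 311 and 333 with shRNA2, against 179 and 111 with the empty vector. Gins1, a subunit of the GINS complex that joins it, had 222 and 152 with shRNA1 and 253 and 224 with shRNA2, against 130 and 101 with the empty vector. In both genes every shRNA array lay above both controls. Cdc45 differed by 0.93 ± 0.23 (adjusted p = 0.123) and Gins1 by 0.87 ± 0.21 (adjusted p = 0.117). Dbf4, the activator of the Cdc7 kinase, had 722 and 464 with shRNA1 and 874 and 704 with shRNA2, against 687 and 366 with the empty vector (0.43 ± 0.31, adjusted p = 0.569). Its groups overlapped, as did those of Cdc7 (0.42) and of Mcm10, a helicase cofactor (0.20).

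The DNA polymerases and primase had the highest group median of the role groups, 0.67 over 8 genes, and 1 of them rose. Pole2, an accessory subunit of polymerase epsilon, which copies the leading strand, had 280 and 230 with shRNA1 and 399 and 399 with shRNA2, against 160 and 177 with the empty vector. Its controls lay within 0.15 log2 units of each other, and shRNA1, shRNA2 and empty vector formed 3 separate levels. It rose by 0.92 ± 0.14, or 1.89-fold (limma adjusted p = 0.0443, or 0.0567 when blocked by replicate, alternatives 0.0104 to 0.209), and by 1.25 ± 0.17 for shRNA2 (0.0262, range 0.00676 to 0.240). Prim1, the catalytic subunit of primase, had 569 and 351 with shRNA1 and 703 and 655 with shRNA2, against 279 and 234 with the empty vector. All shRNA arrays were higher, and the difference of 1.11 ± 0.22 did not pass (adjusted p = 0.0783). Pold2, an accessory subunit of polymerase delta, had 215 and 167 with shRNA1 and 321 and 253 with shRNA2, against 143 and 133 with the empty vector, also without overlap (0.75 ± 0.18, adjusted p = 0.11). Pola1, the catalytic subunit of polymerase alpha, differed by 0.76, its partner Pola2 by 0.52 and Pole, the catalytic subunit of polymerase epsilon, by 0.58. The only negative differences of this group, on the brightest probe sets, were in Prim2 (-0.027) and Pold1 (-0.13). Prim2 is the regulatory subunit of primase and Pold1 the catalytic subunit of polymerase delta. On these probe sets of both genes empty-vector replicate 1 was the highest array. The second probe sets gave 0.84 in Prim2 and 0.41 in Pold1, and 0.48 in Prim1 and -0.0068 in Pola2.

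The clamp, clamp loader and single-strand binding genes had 9 members, none called, and a median of 0.20. Rfc5, a subunit of the clamp loader, had 454 and 356 with shRNA1 and 677 and 622 with shRNA2, against 351 and 270 with the empty vector. The lower shRNA1 array lay just above the higher control, while both shRNA2 arrays were well above it (0.73 ± 0.18, adjusted p = 0.12). Rpa3, the smallest subunit of the single-strand binding complex, had 551 and 448 with shRNA1 and 663 and 704 with shRNA2, against 415 and 327 with the empty vector (0.66 ± 0.17, adjusted p = 0.129). Pcna, the sliding clamp, had 4816 and 4074 with shRNA1 and 4835 and 4903 with shRNA2, against 3435 and 3392 with the empty vector. Its controls were nearly equal and its difference small, 0.44 ± 0.14 or 1.36-fold (adjusted p = 0.190). The loader subunits Rfc1 (0.016), Rfc2 (-0.28), Rfc3 (0.19) and Rfc4 (0.64) and the large and middle single-strand binding subunits Rpa1 (-0.19) and Rpa2 (0.20) did not pass.

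Of the genes that finish lagging-strand fragments, Fen1, the flap endonuclease, had 1323 and 1265 with shRNA1 and 1743 and 1835 with shRNA2, against 1809 and 911 with the empty vector. Lig1, the ligase that seals them, had 548 and 444 with shRNA1 and 683 and 700 with shRNA2, against 942 and 304 with the empty vector. In both, the controls enclosed 3 or all of the 4 shRNA arrays, and the differences were 0.24 ± 0.28 and 0.13 ± 0.44 (adjusted p = 0.729 and 0.926).

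Among 5 genes of nucleotide supply, 1 rose. Tk1, thymidine kinase of the salvage route, had 408 and 283 with shRNA1 and 674 and 607 with shRNA2, against 178 and 105 with the empty vector. Every shRNA array was above both controls, and both shRNA2 arrays were above both shRNA1 arrays. It rose by 1.77 ± 0.27, or 3.41-fold, the largest difference of the 43 genes (limma adjusted p = 0.0405, range 0.0112 to 0.185), and by 2.23 ± 0.31, or 4.68-fold, for shRNA2 (0.0273, range 0.00711 to 0.226). For shRNA1 the difference was 1.31 ± 0.31 and did not pass (adjusted p = 0.228). Rrm1, the large subunit of ribonucleotide reductase, had 1110 and 817 with shRNA1 and 1377 and 1230 with shRNA2, against 1278 and 522 with the empty vector (0.45 ± 0.37, adjusted p = 0.616). Dut, which removes dUTP, ran the other way between the controls, with 844 and 715 for shRNA1 and 1249 and 1144 for shRNA2, against 347 and 1049 for the empty vector. Here replicate 1 was the lowest array, by 1.59 log2 units below replicate 2, the most negative gap of the 43 genes, and the difference of 0.67 ± 0.42 did not pass (adjusted p = 0.498). Rrm2, the small subunit of ribonucleotide reductase, differed by 0.28 and Tyms, thymidylate synthase, by -0.23.

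For chromatin behind the fork, Chaf1b, a subunit of the histone chaperone CAF-1, had 382 and 369 with shRNA1 and 492 and 434 with shRNA2, against 299 and 355 with the empty vector, without overlap (0.35 ± 0.14, adjusted p = 0.30). Uhrf1, which brings the maintenance DNA methyltransferase to new DNA, had 704 and 346 with shRNA1 and 976 and 726 with shRNA2, against 1379 and 178 with the empty vector. Its controls were the highest and the lowest of the 6 arrays, 2.96 log2 units apart, the widest gap of the set, and the difference was 0.38 ± 0.81 (adjusted p = 0.874).

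**Figure D3:**
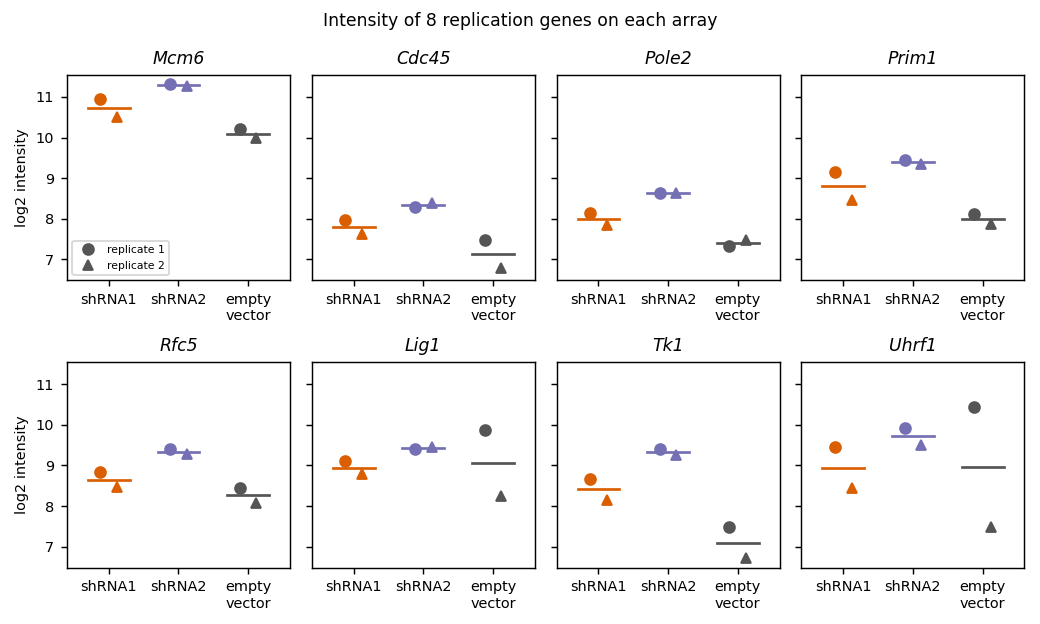
Log2 intensity of 8 replication genes (panels) on each array, with shRNA1, shRNA2 and empty vector from left to right, circles for replicate 1, triangles for replicate 2 and lines at group means. In Pole2, Tk1, Prim1 and Mcm6 both controls lie below all 4 shRNA arrays, whereas in Lig1 and Uhrf1 they lie on either side of them.

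The log2 differences between the shRNAs do not involve the controls, although their SEs and p-values do, because the spread was estimated over all 3 groups. All 43 replication genes were lower with shRNA1 than with shRNA2, by a median of -0.49 (shRNA1 minus shRNA2) and a range from -0.91 (Tk1) to -0.14 (Pcna), whereas 55.0% of all genes were lower, with a median of -0.021. Both shRNA2 arrays lay above both shRNA1 arrays in 37 of the 43, compared with 23.9% of all genes, and the exceptions were Orc1, Dbf4, Pola1, Prim2, Rfc3 and Tyms. No gene of any kind was called in this comparison (0% of 12393 by limma), and 7 replication genes had an unadjusted p under 0.05, all lower with shRNA1, as 1.63% of all genes were. The smallest p-values were those of Pole2 (-0.65 ± 0.17, adjusted p = 0.666), Rfc5 (-0.69 ± 0.21, 0.725) and Tk1 (-0.91 ± 0.31, 0.854). The others of the 7 were Mcm6, Pola2, Pold2 and Pole. With array weights the adjusted p of Pole2 was 0.0954, and over all alternatives it ranged from 0.0954 to 1.00. Without shRNA1 replicate 2, 42 of the 43 genes were still lower with shRNA1.

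The shRNA1 arrays also differed from each other. Replicate 1 was above replicate 2 in 42 of the 43 genes, all but Rfc2, by a median of 0.36, compared with 40.5% and -0.054 over all genes. Between the shRNA2 arrays the median gap was 0.10 and replicate 1 was the higher in 31. The gap between shRNAs thus had a median somewhat above the gap within shRNA1. Rad21 itself was at 790 and 562 with shRNA1 and 724 and 551 with shRNA2, as given above, so the arrays of both shRNAs overlapped in the level of the target. Monocyte and macrophage genes moved with the difference between shRNAs in the opposite direction. Of 15 measured, 12 were higher on both shRNA1 arrays than on both shRNA2 arrays, as were 2191 of all 12393 genes. The mean log2 intensity of the 15 was 9.60 and 9.59 with shRNA1, 8.78 and 8.76 with shRNA2 and 9.19 and 9.79 with the empty vector. The part of this list in the result was not tested.

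**Figure D4:**
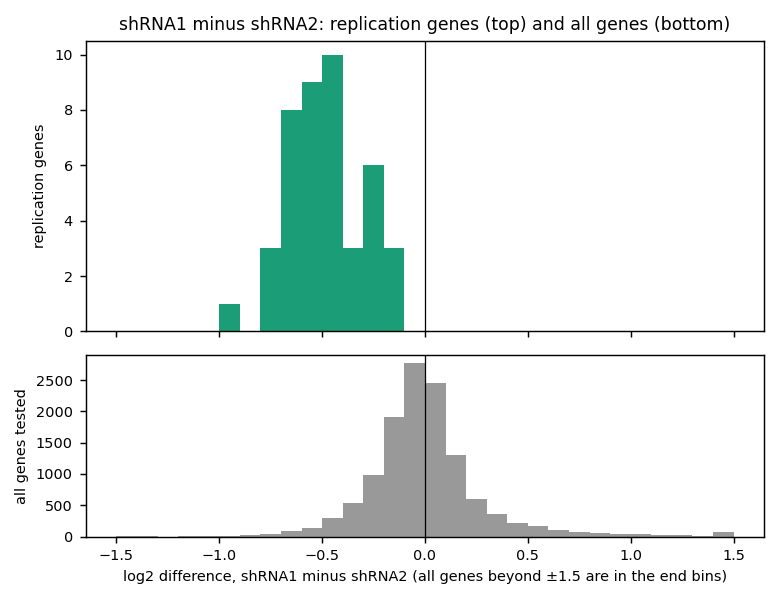
Number of genes by log2 difference between shRNA1 and shRNA2, in bins of width 0.1, for the 43 replication genes (top) and all 12393 genes (bottom), with 0 marked by a line. All 43 replication genes lie left of 0, from -0.91 to -0.14, while the distribution of all genes is centred near 0.

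Many of the genes could be read on more than 1 probe set. Of the 43 genes, 25 had several probe sets, and 19 had at least 2 with a geometric mean intensity of 100 or more, 46 probe sets in all (a limit chosen after the values were seen). In these 19 genes the difference for both shRNAs spanned a median of 0.62 log2 units between probe sets and up to 1.35, and in 5 of them it changed sign. In all 19, the probe set with the highest gap between empty-vector replicate 1 and replicate 2 gave a lower difference than the one with the lowest gap. Such a relation is in part built in, since replicate 1 enters both values. The log2 difference between shRNA1 and shRNA2, which uses neither control, spanned a median of 0.085 between the same probe sets. It spanned up to 0.62, in Mcm3, and all 46 probe sets were lower with shRNA1.

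The ribonucleotide reductase genes and Rpa2, picked after their values were seen, had spans above 1 log2 unit. Rrm2 differed by 0.28 on its brightest probe set, by 0.97 on the second and by 1.58 ± 0.22 on the third. On the third, the log2 intensities were 9.67 and 8.97 with shRNA1 and 9.97 and 9.91 with shRNA2, against 8.08 and 8.02 with the empty vector, so the controls were nearly equal and well below the rest. It rose when every probe set was fitted on its own (limma adjusted p = 0.0493 over 20380 probe sets), as the only one of the 78 probe sets of the set to do so, and Pole2 and Tk1 did not pass in that fit. Rrm1 differed by 0.45 and 1.63 on its 2 probe sets, and Rpa2 by 0.20 and 1.55. On the lower reading of each of these genes empty-vector replicate 1 was above replicate 2, by 1.29 to 2.11, and on the dimmer Rrm1 and Rpa2 probe sets below it, by -0.78 and -1.52. Representing a gene by its brightest probe set thus picked the smallest of these differences in Rrm1, Rrm2 and Rpa2. Of the 19 genes, it did so also in Cdt1, Fen1, Mcm2, Mcm4, Pold1, Prim2, Rfc1, Rfc3, Rpa1 and Uhrf1. It picked the largest in Mcm6 (0.91 against 0.47), Prim1 (1.11 against 0.48) and Rfc4 (0.64 against -0.091). In Mcm3, Mcm7 and Orc2 it gave a middle value.

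**Figure D5:**
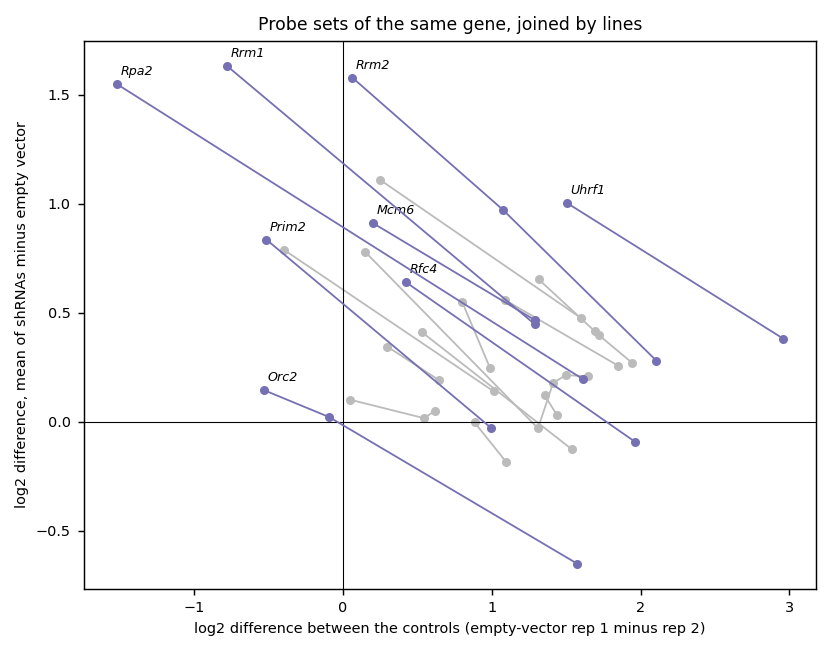
Each point is 1 probe set of the 19 replication genes with several probe sets at a geometric mean intensity of 100 or more, joined by lines within a gene and coloured for 8 labelled genes. The log2 difference between the mean of the shRNAs and the empty vector (vertical) is lower on the probe sets with a higher gap between empty-vector replicate 1 and replicate 2 (horizontal), as in Rrm2, at 1.58 on the probe set with the lowest gap and 0.28 on the one with the highest.

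Genes of the same pathway outside the set were counted from 4 further lists with 69 of 83 entries measured. Of these 69, 2 rose and none fell for both shRNAs together, against 0.734% and 1.4% of all genes. Their differences were positive in 55 (79.7%), against 46.4% of all genes, and the median was 0.37, against -0.023. Shmt1, which feeds folate carbon to thymidylate synthesis, had 222 and 210 with shRNA1 and 237 and 279 with shRNA2, against 135 and 132 with the empty vector, and rose by 0.82 ± 0.14 (limma adjusted p = 0.0476, or 0.0618 when blocked by replicate, alternatives 0.0161 to 0.234). Tfdp1, the dimerization partner of E2F factors, had 1258 and 981 with shRNA1 and 1369 and 1550 with shRNA2, against 529 and 655 with the empty vector, and rose by 1.11 ± 0.18 (limma adjusted p = 0.0443, or 0.0576 when blocked by replicate, alternatives 0.00839 to 0.190). In both genes the controls lay close together and below every shRNA array, and both calls were lost without any single shRNA array, that of Tfdp1 also without empty-vector replicate 1 (0.0504). Among 21 further fork and firing factors none was called for both shRNAs together. The smallest p-values belonged to the nuclease Dna2 (0.96 ± 0.17, adjusted p = 0.0541), the histone chaperone Asf1b (0.81 ± 0.16, 0.0693) and the checkpoint scaffold Topbp1 (0.83 ± 0.18, 0.0939). For shRNA2 alone 2 of the 21 rose in the fit to all arrays, against 0.88% of all genes. They were Dna2 (1.18 ± 0.19, limma adjusted p = 0.0387) and Asf1b (1.02 ± 0.18, 0.0493).

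None of 10 further subunits of the same complexes was called, with Gins4 at 0.93 ± 0.25 (adjusted p = 0.144), Pole4 at 0.48 ± 0.14 (0.164) and Orc3 at 0.44 ± 0.18 (0.298). Of the nucleotide genes, Paics, an enzyme of purine synthesis, differed by 0.70 ± 0.14 (adjusted p = 0.0724) and Umps, an enzyme of pyrimidine synthesis, by 0.63 ± 0.16 (0.136). Of the regulators, Skp2, which marks a Cdk inhibitor for destruction, differed by 0.80 ± 0.22 (adjusted p = 0.157) and the phosphatase Cdc25a by 0.50 ± 0.14 (0.161). Lower with shRNA1 than with shRNA2 were 59 of the 69, with a median of -0.35, against 55.0% of all genes and a median of -0.021. The lists differed here, with all 21 fork and firing factors lower and 6 of the 10 further complex subunits.

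Mitosis genes, which act later in the cell cycle, were set beside the replication genes. Of 28 measured, 7 rose for both shRNAs together, with a median of 0.77 and all differences positive. This compares with 2 of 43 and a median of 0.41 for replication genes and 0.734% of all genes. With the replicate block 6 mitosis genes rose, against 0.726% of all genes, and with array weights 0, against 0.137%. The count of mitosis genes was higher when either empty-vector array was left out and lower when any shRNA array was. Against empty-vector replicate 1 alone the medians were 0.44 and -0.12, and against replicate 2 alone 1.45 and 0.85. Their gap between empty-vector replicates had a median of 0.86, close in size to the 0.91 of replication genes, and their median between shRNA1 and shRNA2 was -0.50, against -0.49. These differences between the lists were not tested.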

How the data were processed

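Per the submitters' processing notes, the authors processed the arrays with RMA, and the deposited table gives an intensity per array for 22690 probe sets, from 4.96 to 20615 with array medians of 100.2 to 104.9, and so on a linear scale. The sources used here do not give RMA's version or say if the arrays were run jointly. RMA equalizes array distributions, so a change in total RNA cannot be seen. Log2 was taken, with no pseudocount or further normalization. The number of arrays limits the precision.

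Gene names came from the platform annotation, checked by RefSeq gene number: 20380 with 1 gene and no Affymetrix control were used, for 12393 genes. limma (version 3.58.1, R 4.3.3; lmFit and eBayes) fitted the 3 groups together, with 3 residual and 2.91 prior degrees of freedom. Tests were two-sided, with Benjamini-Hochberg adjustment over all genes at 0.05, and were tested on simulated data. Python 3.11.15 made tables and figures. Alternatives covered eBayes settings, dim genes, probe sets, normalization, array weights, the replicate block and each array left out. The array weights came out equal within each group (0.33 for empty vector, 1.56 for shRNA1 and 1.93 for shRNA2). They therefore could not weigh 1 array of a group against the other. Same-numbered arrays deviated together (correlation over genes of 0.148 to 0.578 between groups), so replicate numbers were read as pairs. The main fit and its counts have no block, and blocked values are given beside them where they change a reported call. Genes given array by array were those called, the 3 of smallest p in each role group, the 3 of smallest p between shRNAs and the extremes of the control gap. Members and lists were chosen with earlier results of these data known.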

Additional observations from a re-analysis of the deposited data

Results flagged for a closer look

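Orc2, a subunit of the origin recognition complex, had both shRNA1 arrays below and both shRNA2 arrays above the 2 empty-vector arrays on its brightest probe set. Its intensities were 261 and 246 with shRNA1 and 316 and 305 with shRNA2, against 268 and 285 with the empty vector. The difference between shRNA1 and shRNA2 was -0.295 ± 0.145 on the log2 scale and did not pass (limma adjusted p = 0.999). Nor did either shRNA against empty vector, at -0.126 for shRNA1 and 0.168 for shRNA2 (adjusted p = 0.833 and 0.644). Its other 2 probe sets did not show opposite signs, with 0.011 for shRNA1 and 0.279 for shRNA2 on the second, and -0.773 and -0.529 on the dimmest.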

How the results depend on the processing

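For both shRNAs together, the count of 2 replication genes called was 1 with the dimmest 25% or dimmer 50% of genes left out, an intensity trend, quantile normalization, the replicate block or every probe set on its own (the last chosen after seeing the data), and 0 with array weights. It was 0 to 13 with an array left out: 13 when empty-vector replicate 1 was dropped, 12 when replicate 2 was, and 0 when any shRNA array was. The median difference of 0.41 was -0.12 to 0.85 with an array left out. For shRNA1 the count of 0 was 0 to 10 and the median -0.34 to 0.58 with an array left out, the 10 arising without empty-vector replicate 2. For shRNA2 the count of 3 was 1 with array weights, 7 with the replicate block and 0 to 26 with an array left out, and its median 0.19 to 1.10. No replication gene was called between the shRNAs in any of these fits (limma, with 7 at an unadjusted p under 0.05 in the fit to all arrays), although of all genes 92 were higher and 6 lower with shRNA1 when arrays were weighted, and 44 were higher when 1 empty-vector array was left out, whichever it was. The replication genes' median there was -0.70 to -0.33 with an array left out. For both shRNAs, the difference changed sign in 18 of the 43 genes without empty-vector replicate 2 and in 6 without replicate 1. Among those described array by array, it did so without replicate 2 in Dbf4 (-0.027, and 0.88 without replicate 1), Fen1 (-0.25 and 0.74), Lig1 (-0.69 and 0.94), Rrm1 (-0.20 and 1.09) and Uhrf1 (-1.10 and 1.86), and without replicate 1 in Dut (-0.12, and 1.47 without replicate 2). Leaving out an array leaves 1 in its group, which is assumed to vary like the others. The block changed no call of the named genes beyond those given above. The cause of these changes was not tested, beyond the fewer samples or genes that each alternative uses. Across named genes and alternatives, 497 of the values kept direction and side of the threshold, 49 lost the call, 18 gained it and 6 reversed, those just named.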
